A study of Mus musculus with 78 samples.

Results

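The response of control mouse embryonic stem cells (mESCs) to retinoic acid (RA) was followed over 15932 genes, chosen from the 55401 genes of the RNA-seq count table because they had more than 10 counts in at least 2 of 4 libraries. These were 2 DMSO libraries from mESCs in stem cell medium and 2 RA libraries from mESCs moved to a differentiation medium with RA. All libraries came from E14TG2a cells, a 129/Ola line, in which every copy of the transcription factor ZFP143 carried a C-terminal FKBP degron with a GFP reporter, introduced by CRISPR and selected as clones from single sorted cells. The stem cell medium, 2i, was serum-free and held LIF with inhibitors of MEK and GSK3. The DMSO libraries were taken after 24 h of DMSO in 2i. For the RA libraries the same 24 h were followed by a wash and by 24 h in N2B27 medium with 1 µM all-trans RA, with DMSO kept throughout. No library received the differentiation medium without RA, so the effects of RA, of the removal of LIF and both inhibitors and of the additional 24 h cannot be told apart. A parallel arm of 2 and 2 libraries received the degrader dTAG-V1 in place of DMSO throughout, and is used below for comparison.

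RA is a small lipid made from vitamin A by oxidation of retinol to retinaldehyde and of retinaldehyde to RA. It binds RAR receptors, which sit on DNA as heterodimers with RXR at repeated half-sites and exchange corepressors for coactivators when RA is bound. In mESCs, RA ends self-renewal and activates genes of the early body axis, with the Hox clusters among its best known targets, and the pathway is controlled by its own products, since enzymes of the CYP26 family that destroy RA are themselves RA targets.

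RNA levels are given as CPM, the counts of a gene relative to its library total, which was scaled by TMM and set to a common size for all libraries, in the order of replicates 1 and 2 of each group. A gene is called higher or lower where edgeR's glmTreat, a test against a fold change of 1.5, gave an adjusted p under 0.01. Changes are log2 of RA over DMSO with their standard error (SE, n = 2 and 2). The SE comes from the fit of all 8 libraries, so that its spread is shared with the dTAG arm. Of the 15932 genes, 4203 (26.4%) were called higher and 2892 (18.2%) lower. In all 7095 of these genes the RA libraries lay beyond both DMSO libraries on the same side, but so did they in most genes without a call, since over all tested genes both RA libraries lay above both DMSO libraries in 45.3% and below both in 42.1%. The increases were the larger changes, with a log2 change above 3 in 1557 genes and below -3 in 267. Among the genes called higher 1454 had passed the count filter through the RA libraries alone, and among those called lower 229 had passed through the DMSO libraries alone. Of the 13067 genes that passed in all 4 libraries, 2512 were called higher and 2564 lower. The filter left 222 genes with a second highest count of 11 just inside and 237 with one of 10 just outside. With library totals unscaled the median change of all genes was 0.36 in place of 0.04, and 75.3% in place of 59.2% of the calls were increases. On the X chromosome 32.8% of the 585 tested genes were called higher, the largest share of any chromosome, against 20.3% on chromosome 16, the smallest share among the nuclear chromosomes. Of the processed pseudogenes 4.97% were called higher and 12.5% lower, and of the protein-coding genes 27.5% and 18.9%, a difference that was not tested. The counts of lists below stand against the 26.4% and 18.2% of all genes. Some lists share members (465 entries for 419 distinct genes in the first 37 lists), so their counts are not independent.

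The totals ran from 13890761 to 22431442 counts over these 4 libraries, the second RA library being the shallowest. The 2 libraries of a group correlated with r = 0.994 in DMSO and 0.993 after RA over log2 CPM, where genes are not independent replicates, and differed by more than counting noise (chi-square over degrees of freedom of 7.79 and 5.97). The transcript of Zfp143 (chromosome 7, mm10, 110061217 to 110095394) had 44.6 and 36.0 CPM in DMSO and 34.8 and 35.1 CPM after RA, with no call (log2 change -0.21 ± 0.095). Its RNA does not test the degron, which acts on the protein. Stem cell markers stood at high levels in both DMSO libraries, with 1480 and 1648 CPM for Pou5f1. A ribosomal RNA-like locus on chromosome 17, CT010467.1, had 4160 and 3421 CPM in DMSO and 9029 and 11930 CPM after RA (log2 change 1.47 ± 0.12), and mitochondrially encoded genes held 2.08% and 1.65% of the counts in DMSO and 1.61% and 1.81% after RA. The part of the change at this locus in the results below was not tested.

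**Figure D1:**
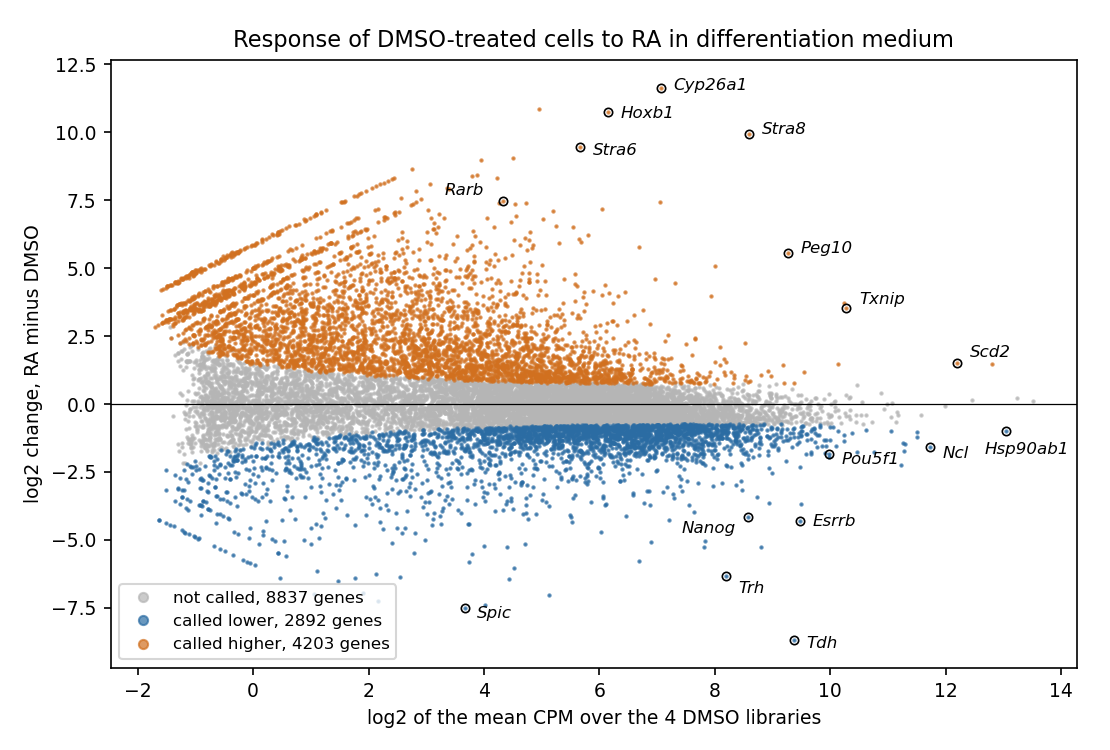
Each point is 1 of the 15932 genes, with the log2 of its mean CPM over the 4 libraries across and its log2 change (RA minus DMSO) upwards. Genes called higher (4203) are orange, lower (2892) blue and the others grey, and genes with no count in a group are drawn at the bound that 3 counts over that group allow. Cyp26a1 and Hoxb1 lie at the top and Tdh at the bottom.

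Direct repeats of the RAR half-site mark known RA response elements, and 4 hexamers were searched on both strands as direct repeats, in any pairing, with a spacing of 5, 2 or 1 bases. The hexamers were AGGTCA together with its variants AGTTCA, then also GGTTCA as well as GGGTCA. The search covered RefSeq promoters (build GRCm38.p6) from 250 bases before to 50 bases after the start. Over all 32851 promoters of the table, 193 (0.588%, exact 95% interval 0.508 to 0.676%) held such a repeat and 32 (0.0974%) held it with a spacing of 5. By symbol 11265 of the 15932 tested genes (70.7%) had a promoter in this table, below the 80% required here before genes called higher, lower and not called would be compared, so that comparison was void. A repeat with a spacing of 5 was found for 7 tested genes, and the sites are given below because they include those of Cyp26a1 and Rarb, on which the next results turn. Capitals mark the half-sites.
Cyp26a1: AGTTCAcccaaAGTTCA
Rarb: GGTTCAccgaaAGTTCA
Prokr2: AGGTCAcaacgGGTTCA
Cfap45: AGTTCAagccaGGTTCA
Prss27: AGTTCAgggccGGGTCA
Blvrb: AGTTCAaagccAGTTCA
Syndig1: GGGTCAcccctAGTTCA
The repeat of Cyp26a1 lies on the minus strand at chr19:37697776-37697792, from 32 to 16 bases before the start used in the promoter table, and that of Rarb on the minus strand at chr14:16575513-16575529, from 53 to 37 bases before the start used there. These RefSeq starts lie inside the gene models whose ends are given below, 10 bases from the first base of the model for Cyp26a1 and 243680 bases from it for Rarb, an internal start of that gene. The other sites lie on the minus strand at chr2:132385575-132385591 (Prokr2), chr1:172520909-172520925 (Cfap45) and chr7:27452399-27452415 (Blvrb), and on the plus strand at chr17:24038094-24038110 (Prss27) and chr2:149830616-149830632 (Syndig1). Of the 7 genes, Cyp26a1, Rarb and Prokr2 were called higher, Cfap45 and Prss27 lower, and Blvrb and Syndig1 were not called. Prokr2, a receptor of prokineticins, had under 2 CPM in each library, and Prss27, a serine protease, under 1, and each lost its call by DESeq2 and when 1 library was left out. A stretch of the Rarb promoter in the direction of the gene (chr14:16575477-16575596, minus strand) shows its repeat in place.
Rarb promoter: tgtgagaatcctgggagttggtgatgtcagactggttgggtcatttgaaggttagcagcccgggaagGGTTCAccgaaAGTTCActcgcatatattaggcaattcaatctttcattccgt
A match of letters is a description and does not show that a receptor was bound.

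The genes named below were chosen by a rule given with the processing, and further members of the lists are named as examples chosen after their values were seen. The receptors that read RA changed unequally. Rarb (chromosome 14, 16430839 to 16819156), itself a classical RA target, had 0.209 and 0.228 CPM in DMSO and 33.4 and 46.1 CPM after RA, a change of 7.46 ± 0.27 with an adjusted p of 1.74e-15. Rarg rose from 122.6 and 131.0 to 234.2 and 196.6 CPM (0.77 ± 0.080, adjusted p = 0.00904), close to the threshold and without a call in 7 of 12 alternative settings, among them DESeq2, the replicate block and the fits without the first DMSO or the first RA library. Rara had 96.3 and 105.9 CPM in DMSO and 63.8 and 59.2 CPM after RA and was not called lower (-0.71 ± 0.078, adjusted p = 0.0336), although both RA libraries lay below both DMSO libraries. Per kilobase of gene model, Rarg had the highest RNA level of the RAR genes after RA, with a mean of 50.6 CPM per kb against 14.1 for Rara and 7.55 for Rarb. Of the RXR partners, Rxra rose from 29.4 and 31.2 to 50.6 and 58.6 CPM (0.85 ± 0.097) and Rxrg from at most 0.0571 to 0.703 and 0.950 CPM (4.60 ± 0.91), whereas Rxrb changed by 0.18 ± 0.080 and was not called. Of the 6 receptors 4 were called higher and 2 were not called, and the median change was 0.81 beside 0.04 over all genes, with 2 members that had passed the count filter through the RA libraries alone. By DESeq2 1 of the 6, Rarb, was called higher, and without the first DMSO library 2 were called higher and 1, Rara, lower. Rxra was also not called without the second RA library. Of the 8 corepressors and coactivators only Nrip1, a corepressor of ligand-bound nuclear receptors and itself an RA target, was called, from 22.5 and 19.2 to 68.7 and 62.9 CPM (1.66 ± 0.11), and the median of this group was -0.01.

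Proteins that carry retinoids into and through the cell rose in all 7 members tested of 8 listed, with a median change of 2.48. Stra6, the membrane receptor that takes up retinol from its plasma carrier, had 0.0522 and 0.228 CPM in DMSO and 86.9 and 115.7 CPM after RA, a change of 9.47 ± 0.26 (adjusted p = 1.46e-17) or 707-fold. The plasma carrier Rbp4 rose from 0.470 and 0.513 to 11.9 and 11.1 CPM (4.53 ± 0.24). Crabp2, which delivers RA to nuclear receptors, rose from 3.08 and 4.22 to 145.8 and 257.7 CPM (5.79 ± 0.23, adjusted p = 5.08e-15), and the RA libraries of this gene differed among themselves by more than those of Stra6. Crabp1, the related cytosolic RA-binding protein, rose less, from 17.4 and 19.7 to 45.6 and 31.1 CPM (1.07 ± 0.14). Fabp5, a fatty acid carrier that also binds RA, rose by 1.75 ± 0.18 and Rbp7 by 2.48 ± 0.51. Of the 7 carriers 3 had passed the count filter through the RA libraries alone, and by DESeq2 4 of the 7 were called higher, with Crabp1 (1.05) and Rbp7 (2.51) among those that were not. Crabp1 was not called without the first RA library either (0.75).

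Of the enzymes that make RA 1 was called, while Cyp26a1, Cyp26b1 and Dhrs3, which remove RA or its precursor, rose by more than 6 on the log2 scale. These were the increases among 6 tested genes of retinoid storage and clearance, with 3 called higher, 1 lower and 2 not called. The median of that list was 3.06, and 2 members had passed the count filter through the RA libraries alone. Of 6 tested synthesis genes Rdh11, a retinol dehydrogenase, was called higher, from 56.5 and 58.3 to 122.6 and 131.3 CPM (1.14 ± 0.076). Rdh10, which makes retinaldehyde in the embryo, had 4.65 and 4.39 CPM in DMSO and 6.94 and 5.77 after RA (0.51 ± 0.18), and Aldh1a2, the main source of RA in the early embryo, had 2.92 and 3.14 against 3.21 and 1.70 CPM (-0.24 ± 0.25), so that its groups overlapped. Aldh1a3 had 1.15 and 0.628 against 0.308 and 0.204 CPM (-1.73 ± 0.51, adjusted p = 0.0140) and was not called. Aldh1a1, with 2 counts in all, and Bco1, with 1, did not pass the filter.

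Cyp26a1 (chromosome 19, 37697798 to 37701536), the P450 that oxidises RA, had no count in either DMSO library and 245.2 and 288.7 CPM after RA. Against 3 counts over the group this is at least 3206-fold higher. Its relative Cyp26b1 rose from 0.104 and 0.513 to 41.3 and 63.8 CPM (7.41 ± 0.33), and Cyp26c1, with 5 and 3 counts after RA, did not pass the filter. Dhrs3, which returns retinaldehyde to retinol, rose from 1.36 and 1.54 to 95.5 and 124.3 CPM (6.24 ± 0.17, adjusted p = 2.90e-17) or 75.4-fold. Dhrs4, another retinaldehyde reductase, went the other way, from 19.7 and 19.2 to 5.32 and 7.60 CPM (-1.62 ± 0.15). Per kilobase, Cyp26a1 RNA stood at a mean of 134.6 CPM per kb after RA, against 9.82 for Cyp26b1 and 1.08 for Aldh1a2.

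**Figure D2:**
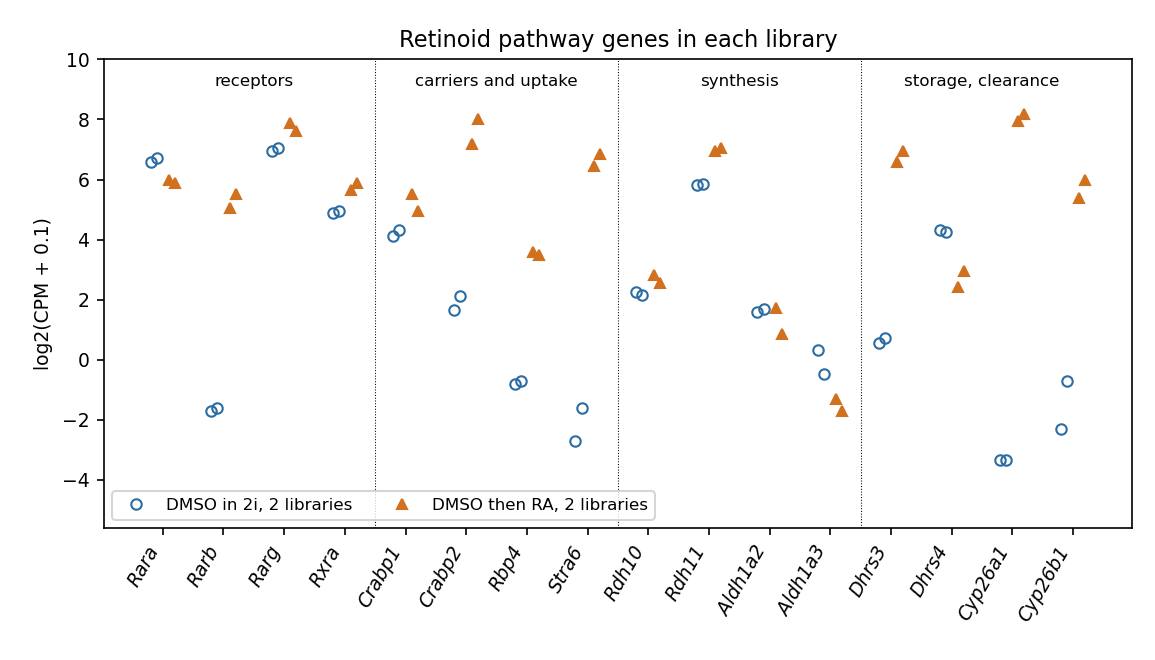
RNA level of 16 genes of the retinoid pathway as log2(CPM + 0.1) in each library, DMSO as blue circles and RA as orange triangles, grouped by role. Rarb, Crabp2, Stra6, Dhrs3, Cyp26a1 and Cyp26b1 are separated most, and the RA libraries of Rara, Aldh1a3 and Dhrs4 lie below their DMSO libraries.

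Of 20 genes listed as induced by RA in earlier work, a list that shares members with those above, 18 were called higher and 1 lower, and the median change was 5.63 (7 had passed the filter through the RA libraries alone). The highest CPM of the list after RA was that of Stra8, a gene needed for entry into meiosis, with 0.783 and 0.799 CPM in DMSO and 752.6 and 794.3 CPM after RA, a change of 9.92 ± 0.13 (adjusted p = 1.50e-22) or 970-fold. Foxa1, a pioneer factor of endoderm and floor plate, rose from 0.104 and 0.0571 to 6.86 and 6.31 CPM (6.23 ± 0.41), and the transglutaminase Tgm2 from 9.09 and 10.6 to 39.7 and 46.2 CPM (2.13 ± 0.13). Cdx1, a caudal homeobox gene, had 14.9 and 19.5 against 26.3 and 13.91 CPM, with the RA libraries on either side of the DMSO libraries (0.26 ± 0.19). Gbx2, a homeobox gene of the anterior hindbrain that is also a LIF target in mESCs, fell from 29.2 and 28.3 to 11.3 and 13.03 CPM (-1.25 ± 0.14, adjusted p = 2.66e-05). Gbx2 was the decrease in the list.

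Genes of all 4 Hox clusters rose. Hox genes encode the homeodomain proteins that set position along the body axis, and the paralogue number gives a gene's place in its cluster, low at the 3′ end and high at the 5′ end. Of 39 Hox genes 34 were tested, of which 29 were called higher and 1 lower. The genes of paralogue groups 1 to 5 were called higher in all 15 cases, with a median change of 6.37 when genes without DMSO counts are set at their bound and a range of 2.83 to 10.85. Those of groups 6 to 9 were higher in all 11 tested of 12, with a median of 4.53. Of groups 10 to 13, 8 of 12 were tested, 3 were higher and 1 lower, and the median was 0.12. The filter was passed through the RA libraries alone by 7 of 9 genes in cluster A, 8 of 10 in B, 2 of 9 in C and 3 of 6 in D.

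In cluster A, Hoxa2 stayed low, from 0 and 0.114 to 2.24 and 2.98 CPM (5.40 ± 0.63). Hoxa5 rose from 0.157 and 0.0571 to 34.1 and 40.6 CPM (8.33 ± 0.26), Hoxa4 by 6.96 ± 0.37 and Hoxa9 by 6.34 ± 0.38. Per kilobase, Hoxa5 stood at 19.9 and Hoxa4 at 6.86 CPM per kb after RA.

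Cluster B reached the highest summed level, 5.64 and 6.05 CPM in DMSO and 440.1 and 555.2 CPM after RA. Hoxb1 (chromosome 11, 96365752 to 96368256), a marker of hindbrain rhombomere identity, had no count in DMSO and 131.2 and 153.8 CPM after RA, at least 1712-fold higher. Hoxb8 had none in DMSO and 38.2 and 52.4 CPM after RA, at least 535-fold higher, and Hoxb3, Hoxb5 and Hoxb6, also without counts in DMSO, were at least 239.3-fold, 334.5-fold and 244.5-fold higher. Hoxb2 rose from 0.0522 and 0 to 56.7 and 67.0 CPM (10.85 ± 0.30). Hoxb9, at 4.49 and 4.56 CPM in DMSO, was the member of the cluster with more than 1 CPM in the DMSO libraries, and rose to 78.4 and 108.3 CPM (4.36 ± 0.16). Hoxb13, which lies apart from the others at the 5′ end, had 0.783 and 0.799 against 1.19 and 1.56 CPM and was not called (0.76 ± 0.34). Per kilobase, Hoxb1 stood at 61.4, Hoxb9 at 36.3 and Hoxb7 at 24.5 CPM per kb after RA.

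Cluster C split by position. Hoxc4 rose from 5.48 and 6.62 to 40.0 and 46.3 CPM (2.83 ± 0.14), Hoxc5 from 0.888 and 0.913 to 26.2 and 39.8 CPM (5.17 ± 0.24) and Hoxc8 by 5.16 ± 0.33. At the other end, Hoxc12 fell from 6.16 and 6.96 to 0.396 and 0.136 CPM (-4.46 ± 0.34, adjusted p = 4.61e-10), the decrease among the Hox genes. Hoxc13 had 18.4 and 21.7 against 12.8 and 9.57 CPM and was not called (-0.81 ± 0.14, adjusted p = 0.0325). Cluster D remained the lowest, with a sum of 35.2 and 34.9 CPM after RA, and there Hoxd8 rose from 0.574 and 0.399 to 11.1 and 11.9 CPM (4.53 ± 0.27) and Hoxd13 from 2.30 and 2.45 to 7.08 and 6.72 CPM (1.54 ± 0.20). Antisense transcripts of the clusters, such as Hoxb3os with no DMSO count and 16.0 and 14.2 CPM after RA, overlap Hox genes, and since the strand setting of the counts is not given in the sources used here, their reads cannot be told from those of their partners with certainty.

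**Figure D3:**
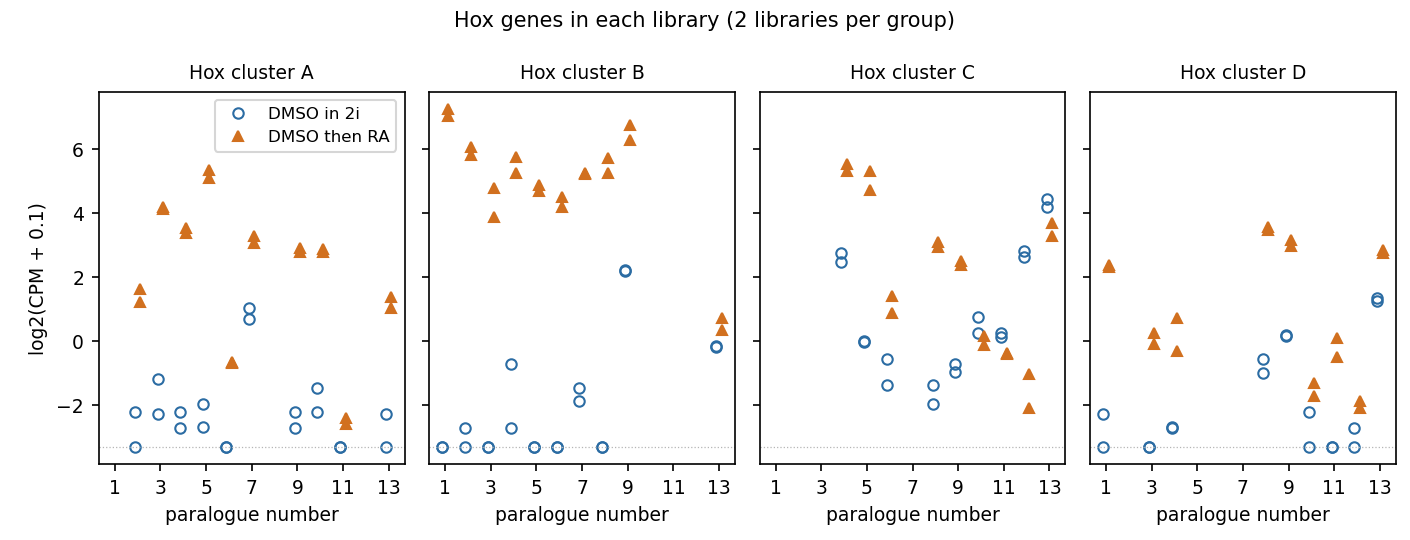
RNA level of 38 Hox genes as log2(CPM + 0.1) against their paralogue number in clusters A to D, with 2 DMSO libraries (blue circles) and 2 RA libraries (orange triangles). The dotted line marks a count of 0. RA libraries lie above DMSO libraries at paralogues 1 to 9, while in cluster C they lie below at paralogues 10 to 13, where Hoxc12 was called.

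The TALE homeodomain proteins, with which Hox proteins bind DNA, were called higher in 7 of 9 members, with a median of 2.11. Meis1 rose from 0.992 and 0.970 to 37.9 and 50.2 CPM (5.47 ± 0.20) and Meis2, which started higher, from 32.2 and 31.5 to 144.3 and 179.7 CPM (2.34 ± 0.096). Pknox2 rose by 3.07 ± 0.16. Its paralogue Pknox1 had 45.1 and 44.7 against 33.3 and 34.9 CPM and was not called (-0.40 ± 0.086).

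The orphan nuclear receptors split into 3 increases and 3 decreases of 9. The COUP-TF genes Nr2f1, from 1.36 and 1.26 to 4.44 and 5.97 CPM (1.96 ± 0.26), and Nr2f2, from 0.836 and 0.742 to 4.35 and 5.16 CPM (2.56 ± 0.27), rose to low levels, and Nr2c1 rose from 3.19 and 3.77 to 23.3 and 21.2 CPM (2.68 ± 0.15). The 3 decreases, Esrrb, Nr0b1 and Nr5a2, are members of the naive pluripotency network. Nr6a1 (GCNF), a repressor of Pou5f1 in differentiating cells, had 74.2 and 74.3 CPM in DMSO and 122.5 and 113.5 CPM after RA, an increase of 0.67 ± 0.071 that did not pass the threshold of 1.5-fold (adjusted p = 0.0775) but did so with unscaled library totals and when tested against no change.

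Genes of the naive state, the ground state that 2i and LIF maintain, fell in 17 of 18 cases, with a median change of -3.42. Nanog fell from 745.5 and 705.4 to 51.3 and 29.0 CPM (-4.15 ± 0.15, adjusted p = 1.58e-15) or 17.7-fold. Esrrb fell from 1280 and 1435 to 84.9 and 49.4 CPM (-4.32 ± 0.16), Tfcp2l1 from 1385 and 1278 to 121.1 and 88.1 CPM (-3.66 ± 0.11) and Klf4 from 273.0 and 291.9 to 37.3 and 17.4 CPM (-3.32 ± 0.18). The second RA library was the lower one for each of these 4 genes. Zfp42 (Rex1) fell from 811.2 and 745.9 to 76.6 and 70.2 CPM (-3.40 ± 0.084) and Tcl1 from 181.6 and 225.2 to 4.92 and 1.97 CPM (-5.77 ± 0.19). Tdh, threonine dehydrogenase, on which the metabolism of mESCs depends, fell from 1203 and 1427 to 3.87 and 2.24 CPM, and the ETS factor Spic from 24.4 and 26.0 to 0.220 and 0 CPM. Dppa5a, which encodes an RNA-binding protein, was the exception, with 733.9 and 700.5 against 940.0 and 686.2 CPM and groups that overlapped (0.18 ± 0.13).

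Factors that both naive and primed cells use had a median nearer to 0. Of 12 such genes 9 were called lower and none higher by glmTreat, with a median of -1.69. Pou5f1 (Oct4) fell from 1480 and 1648 to 538.8 and 344.7 CPM (-1.82 ± 0.14, adjusted p = 4.31e-09) or 3.53-fold, Sox2 from 341.5 and 388.8 to 88.1 and 72.7 CPM (-2.18 ± 0.093) and Sall4 from 325.9 and 344.2 to 97.5 and 95.8 CPM (-1.79 ± 0.070). Tdgf1, the Nodal co-receptor, fell most, from 442.9 and 435.7 to 15.4 and 10.5 CPM (-5.05 ± 0.14). Lin28a, which blocks maturation of let-7, had 202.2 and 201.9 against 179.9 and 235.4 CPM, and Dppa2 53.2 and 61.4 against 58.0 and 61.6 CPM, with overlapping groups for both.

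Genes that mark the exit from the naive state did not move together. Of 14 tested formative and primed genes 6 rose and 4 fell, with a median of 0.39 (0.21 without the second RA library). Otx2, a head and epiblast factor, fell from 10.6 and 10.1 to 0.308 and 0.271 CPM (-5.11 ± 0.28) and Foxd3 from 20.9 and 23.2 to 1.76 and 1.09 CPM (-3.88 ± 0.18). Sox3 rose from 1.78 and 2.17 to 25.0 and 21.9 CPM (3.58 ± 0.17), Pou3f1 (Oct6) from 1.15 and 2.05 to 15.2 and 16.8 CPM (3.32 ± 0.22) and Sox4 from 10.4 and 8.44 to 138.4 and 162.2 CPM (3.99 ± 0.11). Fgf5, the classical epiblast marker, had 6, 3, 2 and 5 counts and could not be tested. The methyltransferases separated, as Dnmt3a rose from 62.7 and 65.2 to 203.2 and 214.0 CPM (1.71 ± 0.074) while Dnmt3b fell from 190.5 and 175.9 to 65.7 and 74.97 CPM (-1.39 ± 0.081). Among 10 genes of DNA methylation 2 rose and 6 fell, with a median of -1.03. The maintenance factor Uhrf1 fell from 1212 and 1317 to 363.0 and 342.3 CPM (-1.84 ± 0.074) and Dnmt1 by 1.09 ± 0.071. Of the demethylating TET enzymes Tet1 fell from 607.9 and 504.0 to 179.6 and 139.7 CPM (-1.80 ± 0.099), and Tet3 rose from 14.5 and 16.4 to 38.1 and 42.5 CPM (1.38 ± 0.10).

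RNA of neural progenitor genes rose in part. Of 19 listed genes 11 were tested, 6 rose and 2 fell, and the median was 1.27. Of the 11, 2 had passed the filter through the RA libraries alone. In bulk RNA, fewer cells of a type and less RNA per cell cannot be told apart, which holds for all lineage genes here. Pax6 rose from 0.836 and 0.628 to 48.9 and 54.3 CPM (6.12 ± 0.19, adjusted p = 1.54e-16), the neural tube gene Irx3 from 0 and 0.0571 to 9.49 and 12.3 CPM (8.33 ± 0.47) and the Notch ligand Dll1 from 0.627 and 0.342 to 30.5 and 22.8 CPM (5.76 ± 0.27). Sox1 rose from 12.01 and 11.2 to 26.8 and 29.7 CPM (1.27 ± 0.12). The intermediate filament gene Nes and the adhesion gene Ncam1 fell, by 1.40 ± 0.11 and 1.13 ± 0.11. The proneural gene Neurog2 had at most 3 counts in any library.

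Of 12 tested neuronal genes 2 rose and 6 fell, with a median of -1.37, and in the test against no change 5 rose and 7 fell. Tubb3, a neuronal tubulin, fell from 161.1 and 172.6 to 9.19 and 10.4 CPM (-4.10 ± 0.10), Stmn2 from 460.7 and 514.2 to 111.6 and 90.9 CPM (-2.26 ± 0.096) and Nefm from 39.4 and 48.9 to 5.23 and 7.12 CPM (-2.87 ± 0.15). Prph, peripherin, rose from 5.01 and 7.87 to 87.7 and 109.4 CPM (3.94 ± 0.15) and Elavl4 from 1.67 and 1.83 to 10.9 and 10.2 CPM (2.60 ± 0.21). The list as a whole went from 808.2 and 894.7 summed CPM to 281.6 and 285.0, and the defining neuronal genes Dcx, with at most 1 count, and Snap25, with at most 3, were near 0 in every library. Regional genes were mixed. Of 6 tested hindbrain genes 3 rose and 2 fell, and 3 had passed the filter through the RA libraries alone. Of 6 forebrain genes also 3 rose and 2 fell, 1 having passed through the RA and 1 through the DMSO libraries alone, and their median of 1.11 became 0.59 without the first RA library. Among them were Emx2 from no count to 4.35 and 5.50 CPM, at least 58.7-fold higher, and Hesx1 from 2.77 and 2.11 to 0.527 and 0.543 CPM (-2.19 ± 0.34). Both stayed at low levels.

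Primitive and parietal endoderm genes were called higher in 10 of 12 tested members, with a median of 3.32 and a summed level of 19.9 and 19.1 CPM in DMSO against 217.7 and 223.8 CPM after RA. Of the 12 members 6 had passed the filter through the RA libraries alone. Of the sum after RA, 162.7 and 165.3 CPM came from Lrp2 (megalin), an endocytic receptor that other epithelia also express, which rose from 9.98 and 9.01 CPM (4.11 ± 0.091, adjusted p = 1.17e-18). The endoderm regulators stayed low, with Gata6 at 0.157 and 0.0571 against 8.97 and 7.80 CPM (6.20 ± 0.35), Gata4 at 2.98 and 3.65 against 10.6 and 9.84 CPM (1.63 ± 0.19) and Sox7 at 0 and 0.0571 against 4.09 and 4.41 CPM (6.98 ± 0.55). The visceral endoderm genes Ttr, without a count, and Afp, with 1 count in all, were absent at this depth. Of the basement membrane genes Col4a1, from 17.2 and 14.6 to 134.3 and 133.2 CPM (3.07 ± 0.090), Col4a2, from 6.27 and 6.22 to 113.0 and 112.8 CPM (4.17 ± 0.11), and Lamb1 (2.31 ± 0.098) rose, whereas Lama1, from 106.4 and 112.7 to 42.3 and 38.2 CPM (-1.44 ± 0.079), and Nid1 (-1.34 ± 0.11) fell, with a median of 0.24 over 11 genes that became 0.13 without the second DMSO and 0.09 without the first RA library.

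Of 14 tested genes of the primitive streak and mesoderm 7 rose and 5 fell, with a median of 1.08. Of the 14, 4 had passed the filter through the RA and 4 through the DMSO libraries alone. The count of 5 decreases became 1 by DESeq2, 2 without the first RA library and 3 without any other single library or with unscaled totals, and the median became 1.89 over the 13 members left by a filter of more than 10 counts in 4 of 8 libraries. Meox1, a somite gene, rose from 0.366 and 0.228 to 14.7 and 31.1 CPM (6.20 ± 0.42), with the second RA library well above the first, and Pdgfra from 0.470 and 0.856 to 6.15 and 5.90 CPM (3.19 ± 0.31). In the other direction, the streak ligand gene Wnt3a fell from 1.67 and 1.43 to 0.0879 and 0 CPM (-4.71 ± 0.67) and Evx1 by 3.69 ± 0.79 (not called by DESeq2 or without the first RA library), and T (Brachyury) had 0.679 and 0.628 against 0.396 and 0.543 CPM and was not called. Definitive endoderm genes had a median of 0.01, with 3 higher and 1 lower of 7, of which 3 had passed through the RA libraries alone. The 1 decrease was not called by DESeq2, with unscaled totals or without the second DMSO or the second RA library. Trophectoderm genes had a median of 0.44, with 3 higher and 3 lower of 8, which became 0.16 without the first and 0.78 without the second DMSO library. Neural crest genes had a median of 2.17 (4 higher, 1 lower of 7, of which 2 passed through the RA libraries alone). The keratin gene Krt18 rose from 4.07 and 5.13 to 41.2 and 52.1 CPM (3.34 ± 0.15), and the trophectoderm factor Tead4 fell from 104.5 and 104.9 to 21.5 and 19.2 CPM (-2.35 ± 0.095).

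RNA of 9 tested genes of the 2-cell-like state, a rare state of mESC cultures with transcripts of the 2-cell embryo, was higher in all 9, with a median of 3.84 and a summed level of 5.95 and 4.68 CPM in DMSO and 99.4 and 103.7 CPM after RA. Of the 9 genes 4 had passed the filter through the RA libraries alone, and 8 were called without the second DMSO library. Zscan4d rose from 1.52 and 0.685 to 20.5 and 20.7 CPM (4.20 ± 0.21) and Usp17le from 0.836 and 0.685 to 34.5 and 36.8 CPM (5.53 ± 0.18). These genes have near-identical copies, so that the division of reads among the members is uncertain. Fibroblast genes, listed as markers of other cells in the culture, were tested in 4 of 8 cases, with 3 higher. Pdgfrb rose from 2.40 and 2.28 to 18.0 and 19.8 CPM (3.00 ± 0.15) and Col1a1 from 0.522 and 0.685 to 4.13 and 6.99 CPM (3.15 ± 0.31), while the defining fibroblast genes Col3a1 and Dcn had no count and Lum and Postn 1 count each over the 4 libraries.

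**Figure D4:**
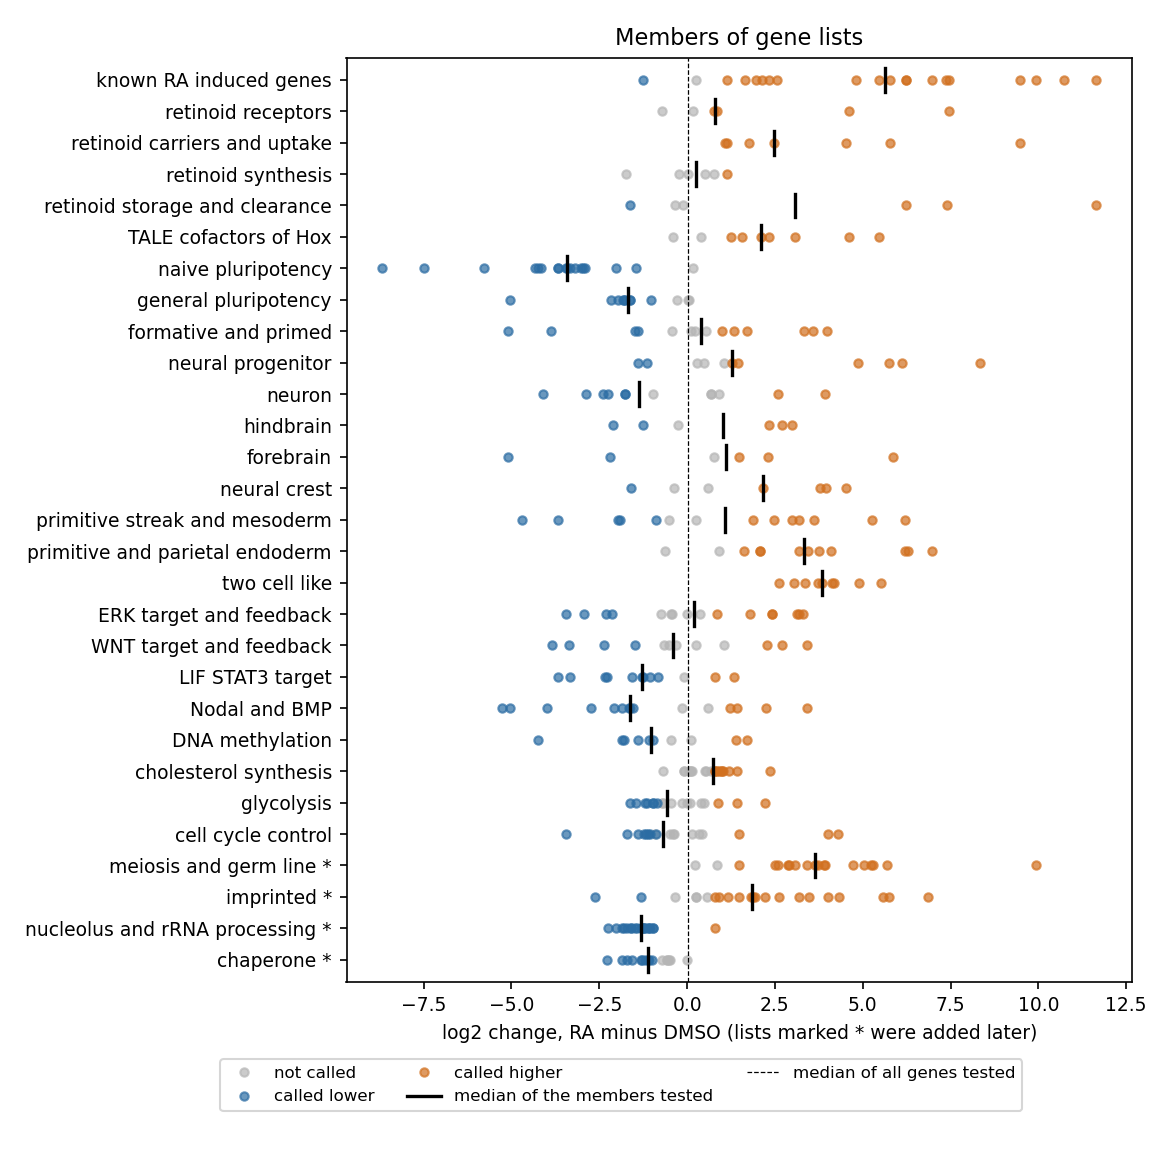
Log2 change (RA minus DMSO) of the tested members of 29 gene lists, orange where called higher, blue where called lower and grey where not called, with genes without DMSO counts at their bound. Black bars are the medians of the members and the dashed line is the median of all genes, 0.04. The naive pluripotency genes lie to the left except Dppa5a, and the known RA induced genes to the right except Gbx2, with Cdx1 near the dashed line. Lists marked with an asterisk were added after values had been seen.

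The medium of the stem cells held 3 pathways, whose target genes are given in turn. LIF acts through STAT3, and 9 of its 12 target genes fell and 2 rose, with a median of -1.27. Socs3, the feedback inhibitor, fell from 117.6 and 137.9 to 27.7 and 24.9 CPM (-2.27 ± 0.11, adjusted p = 9.08e-13), Bcl3 from 84.9 and 99.7 to 17.9 and 19.1 CPM (-2.32 ± 0.11) and Junb from 30.7 and 29.3 to 9.80 and 10.5 CPM (-1.57 ± 0.11). The kinase gene Pim1 rose from 144.1 and 168.3 to 276.2 and 263.8 CPM (0.79 ± 0.087) and Cish by 1.34 ± 0.24, the latter from under 2 CPM. Neither was called by DESeq2, and Pim1 lost its call without the first DMSO or the first RA library and Cish without the second DMSO library.

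The GSK3 inhibitor stabilises β-catenin, and of 12 WNT target and feedback genes 4 fell and 3 rose, with a median of -0.41, the increases being no larger a share than the 26.4% of all genes. The count of decreases became 3 by DESeq2, with unscaled totals, and without either DMSO library or the second RA library. Axin2 fell from 75.1 and 75.9 to 14.4 and 15.1 CPM (-2.36 ± 0.091, adjusted p = 3.40e-14), Sp5 from 7.99 and 9.07 to 0.484 and 0.746 CPM (-3.84 ± 0.32) and the secreted inhibitor Notum from 86.7 and 88.1 to 9.63 and 7.06 CPM (-3.36 ± 0.13). In the other direction Nkd1, a cytoplasmic feedback inhibitor of the pathway, rose from 1.15 and 1.37 to 12.6 and 14.4 CPM (3.41 ± 0.19) and Sp8 by 2.69 ± 0.23.

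The MEK inhibitor blocks ERK, and of 16 tested ERK target and feedback genes 7 rose and 4 fell, with a median of 0.19. The phosphatase genes Dusp6, from 19.5 and 21.2 to 95.6 and 122.3 CPM (2.42 ± 0.12, adjusted p = 9.19e-13), Dusp4, from 3.92 and 5.53 to 39.3 and 46.1 CPM (3.18 ± 0.14), and Dusp5 (2.43 ± 0.15) rose. Egr1 rose from 0.522 and 0.742 to 3.16 and 8.48 CPM (3.13 ± 0.43), with RA libraries that differed more than 2-fold. Spry2 fell from 63.7 and 71.3 to 14.2 and 16.8 CPM (-2.13 ± 0.10), Etv5 from 514.9 and 524.4 to 114.3 and 95.5 CPM (-2.30 ± 0.084) and Myc from 25.4 and 24.8 to 3.74 and 2.58 CPM (-2.94 ± 0.18), and these are also genes of the pluripotent state.

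Nodal and BMP genes fell in 9 of 15 tested cases and rose in 4, with a median of -1.63. Lefty2, a Nodal inhibitor and target, fell from 410.5 and 460.9 to 11.3 and 11.3 CPM (-5.27 ± 0.095, adjusted p = 3.83e-20), its paralogue Lefty1 from 84.4 and 104.5 to 18.8 and 34.9 CPM (-1.85 ± 0.17), and Nodal from 84.8 and 94.6 to 27.9 and 34.7 CPM (-1.53 ± 0.10). The BMP target Id3 fell from 16.8 and 16.4 to 1.14 and 0.882 CPM (-3.99 ± 0.23). Among the increases the ligand gene Bmp7 rose from 7.26 and 9.13 to 42.6 and 33.9 CPM (2.23 ± 0.14). Of 11 Notch genes 4 rose and 2 fell, beside 26.4% and 18.2% of all genes, with the ligand Jag2 from 10.1 and 10.5 to 56.6 and 49.8 CPM (2.38 ± 0.11) and the effector Hes1 from 45.6 and 55.9 to 24.8 and 24.6 CPM (-1.03 ± 0.11).

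Neither cadherin was called. Cdh1 (E-cadherin) had 1139 and 1204 CPM in DMSO and 822.9 and 626.2 CPM after RA and was not called (-0.69 ± 0.094, adjusted p = 0.0848), though it was called without the first RA library (-0.91), and Cdh2 (N-cadherin) had 7.73 and 7.81 against 8.97 and 14.4 CPM (0.55 ± 0.19). Of 14 tested epithelial and mesenchymal genes 6 rose and 1 fell, with a median of 0.57 (0.86 without the first and 0.30 without the second RA library). Both kinds were among the increases, with the epithelial Epcam from 22.5 and 24.5 to 79.9 and 71.9 CPM (1.70 ± 0.090) and Cldn6 by 2.52 ± 0.15, and the mesenchymal repressor Zeb2 from 0.783 and 0.456 to 14.5 and 21.4 CPM (4.81 ± 0.27). Vim, vimentin, fell from 612.2 and 665.3 to 146.3 and 185.2 CPM (-1.95 ± 0.093).

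Part of the genes of cholesterol synthesis rose and part of those of glycolysis fell. Of 20 cholesterol genes 10 rose and none fell by glmTreat, with a median of 0.73, though 1 was called lower without the first DMSO library. Hmgcs1, the entry enzyme, rose from 460.9 and 449.4 to 977.5 and 1090 CPM (1.18 ± 0.072) and the cyclase Lss from 146.1 and 149.9 to 366.9 and 425.7 CPM (1.42 ± 0.081). Of 18 glycolytic genes 7 fell and 3 rose, with a median of -0.57. Hk2 fell from 441.4 and 420.6 to 142.0 and 138.7 CPM (-1.62 ± 0.072) and Ldha from 1174 and 1276 to 503.2 and 615.7 CPM (-1.13 ± 0.087), while the glucose transporter gene Slc2a1 rose from 304.7 and 320.3 to 698.4 and 990.4 CPM (1.43 ± 0.12) and the neuronal enolase gene Eno2 from 7.00 and 6.28 to 32.2 and 29.8 CPM (2.22 ± 0.12).

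Of 18 cell cycle genes 8 fell and 3 rose, with a median of -0.69. The D cyclins exchanged, as Ccnd1 fell from 287.3 and 284.6 to 28.8 and 22.7 CPM (-3.46 ± 0.093, adjusted p = 3.17e-17) and Ccnd2 rose from 0.888 and 0.171 to 9.06 and 12.8 CPM (4.29 ± 0.33). Ccne1 fell from 229.8 and 223.6 to 82.0 and 91.5 CPM (-1.39 ± 0.074) and Pcna from 396.3 and 381.6 to 118.6 and 119.6 CPM (-1.71 ± 0.073). Of the inhibitors of cyclin-dependent kinases, Cdkn1c rose from 1.20 and 0.685 to 14.6 and 16.5 CPM (4.01 ± 0.23) and Cdkn1a (p21) fell from 175.1 and 203.0 to 88.9 and 71.9 CPM (-1.23 ± 0.099). Mki67, a marker of cycling cells, had 351.1 and 361.5 against 455.8 and 453.4 CPM and was not called (0.35 ± 0.072).

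Among all genes with a mean count of at least 100, the largest fitted increases were those of Cyp26a1 and of genes of clusters A and B, joined by Csn3, which encodes kappa-casein, with no count in DMSO and 23.6 and 35.5 CPM after RA (at least 346-fold higher), and by the cytokine gene Il33, with none in DMSO and 14.4 and 13.91 CPM after RA (at least 174-fold higher). The order among genes without DMSO counts depends on the fit. The largest decreases after Tdh and Spic were those of the X-linked Gm14820, from 33.5 and 31.3 to 0.132 and 0.271 CPM (-7.39 ± 0.24), the cation channel gene Trpm1, from 59.5 and 79.6 to 0.571 and 0.475 CPM (-7.01 ± 0.22), the uncharacterised 2310043M15Rik (-6.45) and Ly6a (Sca-1), from 11.3 and 11.9 to 0.132 and 0.136 CPM (-6.37 ± 0.30). Trh, the gene of thyrotropin-releasing hormone, had higher levels, 547.2 and 603.0 CPM in DMSO and 7.78 and 6.17 CPM after RA (-6.34 ± 0.14, adjusted p = 4.47e-19). In CPM the largest gains among called protein-coding genes were those of the fatty acid desaturase gene Scd2, from 2433 and 2436 to 6889 and 6984 CPM (1.51 ± 0.074), of Txnip, which inhibits thioredoxin and glucose uptake, from 179.7 and 213.4 to 2490 and 2079 CPM (3.54 ± 0.11), and of midkine (Mdk), an RA-inducible growth factor, from 161.5 and 182.2 to 2091 and 2415 CPM (3.71 ± 0.091). Peg10 and Scd1 followed. The largest losses were those of the chaperone gene Hsp90ab1, from 10730 and 11720 to 5403 and 5750 CPM (-1.01 ± 0.079, not called with unscaled totals), and of nucleolin (Ncl), from 4833 and 5291 to 1671 and 1692 CPM (-1.59 ± 0.076), followed by mt-Nd1, Hsp90aa1 and Npm1.

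Further lists were made after these values had been seen, so their counts describe the pattern that led to them. Of 19 tested genes of meiosis and the germ line 17 rose and none fell by glmTreat, with a median of 3.64, and 5 had passed the filter through the RA libraries alone. Beside Stra8, the cohesin gene Rec8 rose from 13.8 and 18.4 to 122.5 and 147.0 CPM (3.07 ± 0.11), the germ cell helicase Ddx4 (Vasa) from 5.54 and 6.10 to 76.8 and 76.7 CPM (3.72 ± 0.11), Dazl from 14.4 and 15.2 to 114.0 and 100.3 CPM (2.86 ± 0.090) and the synaptonemal complex gene Sycp2 from 0.157 and 0.285 to 10.3 and 13.1 CPM (5.69 ± 0.30). Hormad1 and Hormad2 were not called. Of 22 tested imprinted genes 16 rose and 2 fell, with a median of 1.84, and 3 had passed through the RA libraries alone. The neighbours Peg10, from 26.2 and 24.8 to 941.0 and 1475 CPM (5.57 ± 0.18), and Sgce, from 0.992 and 1.08 to 54.7 and 57.7 CPM (5.75 ± 0.16), rose most beside H19, from 0.313 and 0.228 to 19.5 and 46.6 CPM (6.86 ± 0.45), and Plagl1 fell from 151.4 and 143.1 to 26.8 and 20.2 CPM (-2.63 ± 0.10). The counts do not separate alleles.

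Of 20 genes of the nucleolus and of ribosomal RNA processing 19 fell and 1 rose, with a median of -1.30. Nolc1 fell from 598.8 and 627.3 to 150.4 and 152.8 CPM (-2.02 ± 0.071) and Ubtf, a factor of RNA polymerase I, from 558.8 and 611.1 to 129.0 and 115.0 CPM (-2.26 ± 0.078). The increase was that of Dkc1, the pseudouridine synthase, from 435.4 and 426.5 to 730.0 and 753.6 CPM (0.78 ± 0.067), which was not called by DESeq2 or without the second RA library. Of 16 chaperone genes 10 fell and none rose by glmTreat, with a median of -1.11, and of 14 genes of fatty acid synthesis 5 rose and none fell, with a median of 0.60 and 9 not called. Of the 13 protein-coding genes of mitochondrial DNA, 6 (mt-Co2, mt-Co3, mt-Atp6, mt-Atp8, mt-Nd3 and mt-Nd4l) had at most 3 counts in any library and were not tested, so that shares of mitochondrially encoded counts leave them out. Of the 7 tested 4 fell and none rose by glmTreat. Within that genome mt-Nd1 fell from 4354 and 3574 to 731.0 and 962.1 CPM (-2.23 ± 0.11) while mt-Co1 was not called (9855 and 7954 against 10200 and 10600 CPM).

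With unscaled library totals, where the median change of all genes was 0.36, several list medians moved by over 1.5 times. They became 0.71 for the formative and primed genes, 0.56 for the basement membrane, 0.76 for the trophectoderm, 0.51 for the ERK, -0.09 for the WNT, 0.89 for the epithelial and mesenchymal, -0.25 for the glycolytic, -0.37 for the cell cycle and 0.92 for the fatty acid genes. The medians near 0 became 0.30 for the corepressors and coactivators and 0.33 for definitive endoderm. The count of increases became 2 in place of 1 among the RA synthesis genes, whose median went from 0.27 to 0.58, and 2 in place of 1 among the corepressors and coactivators. Other counts changed as well, with 1 in place of 2 decreases for both the neural progenitor and the Notch genes, 4 in place of 7 glycolytic decreases, 2 in place of 4 basement membrane decreases and 8 in place of 5 increases of fatty acid genes. In the test against no change 3 RA synthesis genes were called higher and 1 lower, 2 corepressors and coactivators higher, and 8 fatty acid genes higher.

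The arm with dTAG-V1, which removes ZFP143, had its own libraries before and after RA, so the RA effect there shares no library with that in DMSO-treated cells. The difference between the effects was tested as an interaction in edgeR's quasi-likelihood test, and a difference was called where the adjusted p was under 0.05 and the log2 difference above 0.5 in size. Both arms had 24 h of treatment before RA and 24 h with it. Of the 4203 genes called higher in DMSO-treated cells 75.7% were also called higher in dTAG-treated cells, and of the 2892 called lower 65.3% were called lower, while 39 genes were called in opposite directions. Of all genes 31.7% had a called difference, 2878 more negative and 2178 more positive in dTAG. This balance depended on the scaling, with 2505 and 2447 under the size factors of DESeq2, 2418 and 2514 with unscaled totals and 2140 and 2171 in DESeq2. Genes were filtered on the libraries of DMSO-treated cells alone, and genes called there were chosen by the values that also enter the difference. Counts of differences by direction over all genes called there are therefore not given.

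Of the 20 RA induced genes, listed by name with earlier results known, 13 differed towards the negative and 1 towards the positive. The 7 members that had passed the filter through the RA libraries of DMSO-treated cells alone gave 5 of the negative differences, and the other 13 members gave 8 and the positive one. Since 18 of the 20 were called higher in DMSO-treated cells, the same limit applies to this count, and the values of single genes are given as a description. Dhrs3 rose from 2.71 and 3.20 to 17.3 and 20.6 CPM in dTAG, a log2 change of 2.66 against 6.24 in DMSO (difference -3.57, adjusted p = 4.50e-09), Crabp2 changed by 2.58 against 5.79 (difference -3.20) and Meis1 by 2.06 against 5.47 (difference -3.41). Stra8, in contrast, reached 1114 and 1137 CPM in dTAG, above its levels of 752.6 and 794.3 CPM in DMSO, from a higher start of 2.51 and 1.88 CPM (9.02 against 9.92, a difference not called without the first DMSO library). Cyp26a1 reached 56.3 and 62.6 CPM in dTAG against 245.2 and 288.7 CPM in DMSO, but its difference was not called (adjusted p = 0.0636). The RAR gene Rarb changed by 5.64 against 7.46 (difference -1.82, adjusted p = 0.0320), which was not called without either DMSO library (-1.75 and -1.88).

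Of the 18 naive genes, 17 of which were called lower in DMSO-treated cells, 13 differed towards the positive and 1 towards the negative, with the same limit. Esrrb fell from 1013 and 1058 to 408.0 and 337.4 CPM in dTAG, a change of -1.47 against -4.32 (difference 2.85, adjusted p = 6.18e-10), and Klf4 changed by -1.76 against -3.32. For Pou5f1 the changes of -1.83 and -1.82 gave no called difference (-0.01). Dppa5a, which did not fall in DMSO-treated cells, fell by 2.25 in dTAG (difference -2.43). All 20 cholesterol genes differed towards the negative, with a median change of 0.73 in DMSO and -0.67 in dTAG and the same count of 20 under each of 3 scalings and in DESeq2. Lss, which rose by 1.42 in DMSO-treated cells, fell by 0.71 from 169.4 and 169.1 to 96.3 and 110.6 CPM in dTAG (difference -2.13). Mitochondrially encoded genes held 0.397% and 0.394% of the counts in the dTAG libraries after RA, against 1.61% and 1.81% in the DMSO libraries after RA, and the part of this in the differences was not tested.

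**Figure D5:**
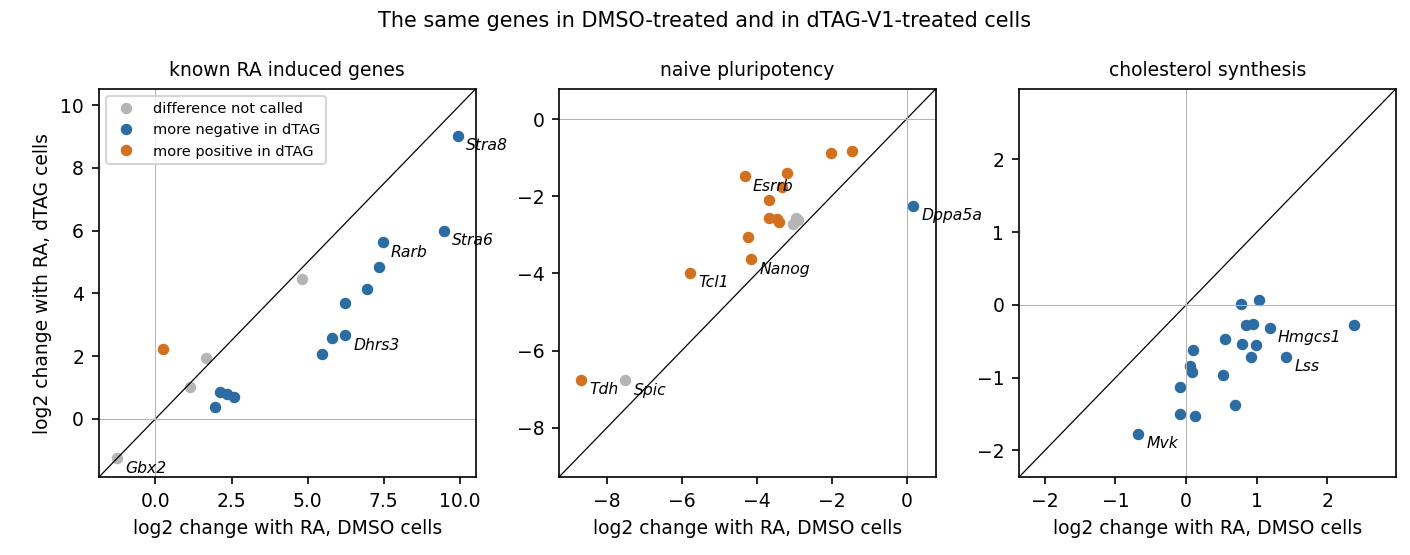
Log2 change with RA in dTAG-treated cells against that in DMSO-treated cells for the RA induced genes with DMSO counts (18 genes), the naive pluripotency genes (18) and the cholesterol genes (20), where the diagonal marks equal change. Blue points are genes called more negative and orange points genes called more positive in dTAG. The 20 cholesterol genes lie below the diagonal, and naive genes other than Dppa5a lie above it.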

How the data were processed

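Poly(A)-selected RNA was sequenced in strand-specific paired-end libraries, 2 biological replicates per group. The authors aligned the reads with STAR to mm10 (GENCODE vM25) and deposited the gene counts, unnormalised whole numbers. The submitters' processing notes name STAR and HTSeq, and which strand setting was kept is not given in the sources used here. Whether the replicates came from separate cultures beyond this label is not stated, so p-values measure the spread between these libraries. Symbols and positions were taken from GENCODE vM21.

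From the deposited counts, all 8 libraries of the table (4 groups of 2) were fitted with edgeR 4.0.16 in R 4.3.3 (TMM, quasi-likelihood), over genes whose counts exceeded 10 in 2 or more of the 4 DMSO and DMSO RA libraries. glmTreat tested the RA effect against a fold change of 1.5, and glmQLFTest the interaction, both with Benjamini-Hochberg adjustment over all genes. All adjusted p-values of the report come from these edgeR fits. Folds for genes without counts in a group were set against 3 counts over the group and cover counting error only. On simulated counts for the 15932 genes, the fit called 100% of genes raised by a log2 change of 2, 60% of those raised by 1 and none of those unchanged. The changed genes were few, as often lowered as raised, and not among the lowest counts, and their spread was that of the fit. Unchanged genes lie below the 1.5-fold threshold by design. The simulation thus does not measure power or error for low counts or for changes as many and unequal as those here.

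The gene lists, the comparison and the named genes were chosen with earlier results of these data known. Named were 36 fixed genes, up to 3 called members of each list with the greatest change in each direction, the 10 genes with the greatest increase and decrease (mean count of at least 100), the 10 with the greatest gain and loss in CPM, and the 5 with the most negative and most positive interaction among called genes, in each case with RA libraries beyond both DMSO libraries where the order was by fold change. Not every gene so chosen is described, and some are not reported here. Replicate numbers did not pair libraries, and the alternatives were DESeq2 1.42.0, its size factors, library size alone, other filters, a replicate block, a test against no change, the 4 libraries alone and each library left out.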

Additional observations from a re-analysis of the deposited data

Results flagged for a closer look

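The RA effect differed between dTAG-treated and DMSO-treated cells for the following genes, by the interaction test of edgeR (adjusted p under 0.05, log2 difference above 0.5 in size, 2 libraries per group). Values are log2 differences, negative where the change in dTAG-treated cells was the lower.

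Among retinoid and RA induced genes the difference was -1.82 for Rarb, -3.20 for Crabp2, -3.57 for Dhrs3, -3.47 for Stra6 and -0.90 for Stra8, each of which rose in both arms and rose less in dTAG. The retinoid lists did not share 1 direction. Negative and positive differences numbered 1 and 2 for the receptors, 4 and 0 for the carriers, 1 and 3 for synthesis, and 1 and 1 for storage and clearance. Aldh1a2 differed by 1.27. Of transcription factors that rose in DMSO-treated cells, Meis1 differed by -3.41, Meis2 by -1.56, Nr2f1 by -1.58, Pax6 by -2.89 and Sox1 by -0.78, and Nr6a1, not called in DMSO, by 0.88. Hoxb8 differed by -5.82 and Moxd1 by -4.22, and both fits rest on 0 counts in DMSO, so their size depends on the prior count. Without either DMSO library the differences of Rarb (-1.75 and -1.88), Hoxb8 (-5.83 and -5.85) and Moxd1 (-4.22 and -4.24) were not called, nor was that of Moxd1 with unscaled totals (-3.92), by DESeq2 (-3.43) or without the second RA library (-4.23), nor that of Stra8 without the first DMSO library (-0.88).

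Some pluripotency genes that fell in DMSO-treated cells differed in the positive direction. The differences were 0.52 for Nanog, 0.85 for Sox2, 0.73 for Zfp42, 2.85 for Esrrb, 1.56 for Klf4 and 1.55 for Tfcp2l1. Sox2 belongs to the 12 genes that both naive and primed cells use. Of those 12, 5 differed towards the negative and 2 towards the positive. Dppa5a differed by -2.43. The same positive direction was seen for Otx2 (1.83), Tubb3 (0.61) and the WNT target Axin2 (1.40), and for T (2.92), which was not called in DMSO-treated cells. The Nodal pathway genes Nodal (-0.54) and Lefty1 (-3.14) and the cholesterol gene Lss (-2.13) differed in the negative direction. The differences of Nanog and Nodal lay close to the threshold of 0.5. That of Nanog was not called without the first DMSO (0.48) or the second RA library (0.20), without a filter (0.47) or by DESeq2 (0.61), and that of Nodal not without the same libraries (-0.46 and -0.39), with DESeq2 size factors (-0.48), with unscaled totals (-0.47) or by DESeq2 (-0.49).

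The most negative differences among genes called in DMSO-treated cells further included 1500009C09Rik (-4.83) and the ubiquitin ligase gene Fbxo32 (-4.10). The most positive were those of Trpm1 (3.94), the glycosyltransferase gene Pomgnt2 (3.89), the zinc finger gene Zfp111 (3.54), the scaffold gene Mapk8ip2 (3.39) and the amino acid transporter gene Slc38a9 (3.30). In this order, their changes in DMSO and dTAG were -7.01 and -3.075, 1.79 and 5.69, -1.08 and 2.46, -3.25 and 0.14, and 0.91 and 4.21. The paper shows Pomgnt2 and the Zfp111 locus among its examples for ZFP143 loss. A start already changed in dTAG before RA enters such differences, and its part was not tested.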

How the results depend on the processing

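With library size alone 5253 genes were called higher and 1722 lower, and in the test against no change 5531 and 4530, beside 4203 and 2892. The other counts stayed within 1.5 times of these, with 3300 and 2249 by DESeq2, 4664 and 3048 without a filter, and 4152 and 2740 from the 4 libraries alone. Leaving out 1 library at a time gave 3865 to 4012 genes higher and 2582 to 2750 lower, and differences between the arms in 2715 to 2817 genes in the negative and 1983 to 2160 in the positive direction. The replicate numbers did not pair libraries (correlations of replicate differences from -0.102 to 0.123), and with a replicate block 4198 genes were called higher and 2865 lower, with 2859 negative and 2156 positive differences. Of 203 genes followed under 12 alternatives, 26 gained or lost a call and none reversed. Without 1 library, the calls of Rarg (0.63 without DMSO RA replicate 1, 0.72 without DMSO replicate 1), Rxra (0.74 without DMSO RA replicate 2, 0.80 without DMSO replicate 1), Crabp1 (0.75 without DMSO RA replicate 1), Evx1 (-2.44, the same library), Prss27 (-2.44, the same library), Prokr2 (3.66 without DMSO replicate 2), Cish (1.15, the same library), Pim1 (0.68 without DMSO replicate 1, 0.75 without DMSO RA replicate 1), Dkc1 (0.76 without DMSO RA replicate 2) and Slc38a9 (0.86 without DMSO replicate 1 or DMSO RA replicate 1) were lost. Calls were gained by Rara (-0.78 without DMSO replicate 1), Aldh1a3 (-2.08 without DMSO replicate 2), Hoxc13 (-1.07 without DMSO RA replicate 1) and Cdh1 (-0.91 without DMSO RA replicate 1). By DESeq2 12 genes lost their call, namely Prokr2, Prss27, Rarg, Rxra, Rxrg, Crabp1, Rbp7, Evx1, Pim1, Cish, Dkc1 and Slc38a9, and Rarg also lost it with DESeq2 size factors (0.76), without a filter (0.74), from the 4 libraries alone (0.78) and with the replicate block (0.76). With library size alone Ncam1, Hes1, Hsp90ab1 and Zfp111 lost and Nr6a1 and Hormad2 gained a call. In promoter bases before the start alone, 0.426% of promoters held a repeat, where fewer bases were searched. Of 407 list medians under the alternatives, 74 moved by more than the spread between replicates, 33 of them with library size alone. Differences between the arms numbered 2505 negative and 2447 positive with DESeq2 size factors, 2418 and 2514 with library size alone and 2140 and 2171 by DESeq2, beside 2878 and 2178. Low counts limit genes below about 1 CPM.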
